A study of Homo sapiens with 38 samples.

Results

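PCGF1 and RING1B were compared in the control arms of a pair of NCI-H661 lines. The libraries were 4 of the 38 in the series, 2 per protein and 1 per line. NCI-H661 (H661), derived from a large cell carcinoma of the lung, expresses endogenous DPPA2 and DPPA4. Binding was mapped by CUT&RUN, in which an antibody directs a nuclease to its target and the chromatin cut free is sequenced. Both lines carried tetracycline-inducible short hairpin RNAs on PiggyBac transposons, against DPPA4 in the shDPPA4 line and against DPPA2 and DPPA4 in the shDPPA2+4 line. The control cells received water for 7 days, so the hairpins were present but not induced, and the matching arm received 2 µg/mL doxycycline. Each line was a sorted bulk population, not a clone, and fewer cells that bind a protein cannot be told apart from less protein bound per cell. The PCGF1 antibody was a mouse antibody read against mouse IgG, and the RING1B antibody a rabbit antibody read against rabbit IgG. The question was how much of the RING1B landscape carries PCGF1, and which genes and sequences lie under either protein.

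RING1B (RNF2) is the E3 ligase of Polycomb repressive complex 1 (PRC1), which places ubiquitin on lysine 119 of histone H2A. Each PRC1 assembly holds 1 PCGF protein, and PCGF1 defines the variant complex PRC1.1, which contains BCOR or BCORL1 and KDM2B. KDM2B binds unmethylated CpG dinucleotides through its CXXC zinc finger, and PRC1.1 is known at CpG island promoters, whereas canonical PRC1 holds PCGF2 or PCGF4 (BMI1) with a CBX and a PHC protein.

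A domain is a run of enriched bins called by EPIC2, kept here with a false discovery rate below 0.05 and a log2 fold over IgG above 1. RING1B had 42613 domains in shDPPA4 cells and 31502 in shDPPA2+4 cells, and PCGF1 had 11067 and 10164. The kept PCGF1 domains held a median of 12 and 13 reads against 1 IgG read in either line, and RING1B domains 16 and 13 reads against 2. Domains shared by both lines, by at least 25% of the shorter domain, were joined into 20754 RING1B sites and 3864 PCGF1 sites. For RING1B, 51.9% of the shDPPA4 domains and 76.4% of the shDPPA2+4 domains had a partner in the other line, against 37.6% and 39.7% for PCGF1. A RING1B site counted as with PCGF1 when a PCGF1 site covered 25% of the shorter of the pair, as without PCGF1 when no kept PCGF1 domain of either line touched it, and otherwise as mixed. With 1 library per protein and line there was no replicate test, and no p-value is given. Intervals in square brackets are exact (Clopper-Pearson) 95% binomial intervals, which cover counting error only.

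PCGF1 sites lay almost wholly within RING1B territory, while most RING1B sites had no called PCGF1. Of 20754 RING1B sites, 3416 were with PCGF1 (16.5% [16.0, 17.0]), 4605 were mixed (22.2%) and 12733 were without (61.4%). Of 3864 PCGF1 sites, 3654 were with RING1B (94.6% [93.8, 95.3]), 48 were mixed and 162 were without (4.19% [3.58, 4.87]). Among the mixed RING1B sites, 2402 had PCGF1 in shDPPA4 cells only and 1994 in shDPPA2+4 cells only. Within a single line the PCGF1 share was lower, with 65.7% of shDPPA4 and 63.1% of shDPPA2+4 PCGF1 domains on a RING1B domain of the same line. By MACS2 peaks, which were few for PCGF1 (1604 and 696), 1.71% of shared RING1B peaks were with PCGF1 and 100% of shared PCGF1 peaks were with RING1B. When the RING1B lists were limited by log2 fold to as many domains as the PCGF1 lists, 6.91% of PCGF1 sites were with RING1B and 11.5% of RING1B sites with PCGF1, so the order of the shares turned.

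Sequences of sites among the first of each class by rank of reads over IgG are shown as examples of single sites. They were taken by rank and do not stand for their class, since at promoter sites the classes had like CpG medians (26 and 24 CpG dinucleotides in 300 bp with and without PCGF1). Each window holds 240 bases of the plus strand of hg38, as near to the centre as a window without an annotated exon allowed (within the PCGF1 overlap for the first), with CpG dinucleotides in capitals. The first is a RING1B site with PCGF1, in intergenic sequence 326555 bp from the start of ALG10 (chr12:34348881-34349120), in the pericentromeric part of chromosome 12, where domains were not filtered against a blacklist. The next are a pair of RING1B sites without PCGF1 that touch the promoter windows of WASF3 (chr13:26559031-26559270) and ZNG1B (chr2:113438023-113438262). The WASF3 site was centred 1468 bp downstream of the start of the gene. Its bases thus run past the edge of the promoter window, which ends 1500 bp from the start. The last is a PCGF1 site without RING1B, in an intron 33890 bp from the start of AASDH (chr4:56353597-56353836).
ALG10-distal site: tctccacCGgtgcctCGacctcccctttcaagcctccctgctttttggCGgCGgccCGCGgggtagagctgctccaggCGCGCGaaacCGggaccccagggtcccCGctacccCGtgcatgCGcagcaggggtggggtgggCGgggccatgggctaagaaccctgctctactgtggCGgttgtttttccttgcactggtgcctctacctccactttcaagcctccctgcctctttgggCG
WASF3 site: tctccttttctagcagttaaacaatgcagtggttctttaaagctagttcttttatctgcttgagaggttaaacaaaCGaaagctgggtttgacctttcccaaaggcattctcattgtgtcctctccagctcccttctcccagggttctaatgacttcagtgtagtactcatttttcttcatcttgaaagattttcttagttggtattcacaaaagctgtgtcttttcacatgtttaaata
ZNG1B site: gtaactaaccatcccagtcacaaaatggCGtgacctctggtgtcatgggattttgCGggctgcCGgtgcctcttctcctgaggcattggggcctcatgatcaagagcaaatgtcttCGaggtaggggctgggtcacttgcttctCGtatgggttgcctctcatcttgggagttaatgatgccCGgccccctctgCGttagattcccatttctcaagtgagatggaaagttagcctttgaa
AASDH site: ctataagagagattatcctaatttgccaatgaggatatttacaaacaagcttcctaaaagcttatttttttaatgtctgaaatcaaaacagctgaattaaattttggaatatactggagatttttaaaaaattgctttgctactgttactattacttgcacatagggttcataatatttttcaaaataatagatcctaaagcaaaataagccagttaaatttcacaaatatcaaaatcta
The ALG10-distal window held 16 CpG dinucleotides, the WASF3 and ZNG1B windows 1 and 7, and the AASDH window 0.

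RING1B sites with PCGF1 were longer than those without. Their median length was 1500 bp (quartiles 1100 and 2300 bp), against 800 bp (600 and 1200 bp), a ratio of 1.88. The share with PCGF1 climbed from 1.76% of the 2616 RING1B sites of up to 500 bp to 69.3% [63.2, 75] of the 251 sites longer than 5000 bp. A longer site is easier to touch, so length and overlap are not independent. PCGF1 sites with RING1B were shorter than the RING1B sites under them, with a median of 900 bp, and the PCGF1 sites without RING1B had a median of 800 bp. Of 3676 overlapping pairs, 3003 PCGF1 sites (81.7%) lay wholly inside the RING1B site, with centres a median of 200 bp apart. PCGF1 covered a median of 60% of the RING1B site, and 211 RING1B sites held 2 or more PCGF1 sites.

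Of the 10 longest RING1B sites, 9 were with PCGF1, and these held from 1 to 5 PCGF1 sites each. The longest, 28100 bp at chr14:36500201-36528300, spanned the promoters of NKX2-1, the lung and thyroid homeobox factor, and SFTA3, and held 2 PCGF1 sites. Over NKX2-1 the RING1B domain held 4382 reads (337 IgG) in the shDPPA4 line and 2715 reads (338 IgG) in the shDPPA2+4 line, the IgG counts being high as well. The site over FOXF1, a forkhead factor of lung mesenchyme, was 24000 bp long with 5 PCGF1 sites. Sites over LHX1 (12800 bp), HOXB7 and HOXB8 (9700 bp) and UNCX (14800 bp) also held 5 PCGF1 sites each. The other of the 10 was the mixed site of 14800 bp nearest MBIP, at chr14:36101201-36116000.

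RING1B density and PCGF1 moved together. RING1B sites with PCGF1 held a median of 71.7 RING1B reads per kb in the shDPPA4 line (quartiles 53.8 and 96), against 33.3 without (26.2 and 45). In the shDPPA2+4 line the medians were 52.3 and 28.3 reads per kb. Over quartiles of RING1B reads per kb, taken over both lines, the share of sites with PCGF1 was 0.482% in the lowest, 4.05% and 16.2% in the next, and 45.1% [43.7, 46.5] in the highest. In that highest quartile 21.5% of sites were without PCGF1. A site without a PCGF1 call had no detectable domain at the depth of these PCGF1 libraries, which is not an absence of PCGF1. The comparisons of EP300, DPPA4 and MTF2 are therefore given within density quartiles too.

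RING1B sites with PCGF1 were mostly promoters, and those without were spread over promoters, introns and intergenic sequence. A promoter window, the transcription start site (TSS) ± 1500 bp of a protein-coding gene, was touched by 78.6% [77.2, 80.0] of RING1B sites with PCGF1 and 40.5% [39.7, 41.4] of those without. Among sites without PCGF1, 18.5% were intronic and 29.1% intergenic, against 3.95% and 7.06% with PCGF1. The median distance from the nearest protein-coding TSS was 385.5 bp with PCGF1 and 8070 bp without. In the highest density quartile the promoter shares were 80.6% and 65.3%, and in the second 64.3% and 42.0%. The difference was thus present within quartiles and smaller at the top. A quartile does not match density fully. In the highest, the median RING1B reads per kb were 85.4 with and 70 without PCGF1 in the shDPPA4 line. In the shDPPA2+4 line they were 62.1 and 53.3, and the part of density in the promoter shares was not tested.

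Around the TSS both proteins were highest just upstream. Over all 19962 promoters, RING1B coverage was highest at -100 bp, where 52.1% of promoters lay under a RING1B site, and PCGF1 coverage at -200 bp, where 12.6% did. At promoters with both proteins the RING1B profile was 1300 bp wide at the level 50% of its height, and the PCGF1 profile 900 bp. RING1B promoters without PCGF1 had an 800 bp wide profile that reached 84.6%. Centres of promoter RING1B sites lay a median of 113 bp upstream of the TSS with PCGF1 and 63 bp upstream without, and 36.8% [35.0, 38.7] and 39.6% [38.3, 41.0] lay downstream.

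At the level of genes, 11503 of 19962 protein-coding promoters (57.6%) had a RING1B domain in both lines, and 3192 (16%) had PCGF1 in both. Both proteins were present in both lines at 3159 promoters (15.8%). RING1B without PCGF1 in either line was found at 4975 promoters (24.9%), and PCGF1 without RING1B at 4 (0.02%). By the shDPPA4 libraries alone 5071 promoters had both proteins, and by the shDPPA2+4 libraries alone 4731. Both counts ask only that a domain of each protein touch the window. At 3124.0 of the 3159 promoters (98.9%) the RING1B and PCGF1 domains overlapped each other in both lines, and at the other 35.0 in 1 line. The 3159 promoters with both had a median CpG observed/expected ratio of 0.82 and 68.4% were CpG-rich (GC above 55% and ratio above 0.75), against 0.78 and 55.6% for RING1B without PCGF1 and 0.28 and 7.95% for promoters with neither. From the lowest to the highest decile of CpG ratio, the share of promoters with RING1B went from 2.20% to 88.7% and with PCGF1 from 0.150% to 31.1%. Among RING1B promoters the share with PCGF1 went from 6.82% (3 of 44) to 34.6% (613 of 1771).

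The CpG content of sites with and without PCGF1 differed more away from any TSS, a class that includes introns and exons, than at promoters. At sites away from any TSS, the central 300 bp held a median of 21 CpG dinucleotides with PCGF1 (n = 439) and 4 without (n = 6449), while at promoter sites the medians were 26 and 24. A CpG-rich centre was found at 34.9% [30.4, 39.5] of the sites away from a TSS with PCGF1 and 4.23% [3.75, 4.75] of those without. Short motifs were looked for on both strands of the same 300 bp. The SP/KLF motif GGGCGG, which itself contains a CpG, was present at 65.9% of RING1B sites with PCGF1, 35.8% without and 6.79% of PCGF1 sites without RING1B, beside 61.5% of all promoters. At promoter sites alone it was present at 68.4% and 61.5%, and the ETS motif CCGGAA at 22.9% and 23.3%, beside 21.9% of all promoters for ETS. Away from any TSS, the AP-1 motif TGANTCA was found at 4.33% [2.63, 6.68] with PCGF1 and 8.75% [8.07, 9.46] without, and GATAAG, read by GATA factors, at 4.56% and 9.01%. Sites away from any TSS also differed in base composition, with a median GC content of 61.3% with PCGF1 and 40.5% without. The part of base composition in the motif shares was not tested. The NF-Y motif CCAAT was found away from any TSS at 24.8% of sites with PCGF1 and 36.0% without, and at promoter sites the other way, at 32.8% [31.0, 34.6] and 28.6% [27.4, 29.9]. Of all promoters 32.8% held CCAAT, so promoter sites with PCGF1 lay at that share and those without lay below it. The E-box CACGTG, the NRF1 core motif GCGCATG and the CRE core motif TGACGT, searched as well, were at 8.11%, 5.27% and 6.44% of all RING1B sites with PCGF1, and at 6.58%, 3.52% and 5.69% of those without. At promoter sites the shares were 8.16%, 5.40% and 7.08% with PCGF1 against 8.91%, 5.50% and 8.12% without. There the counting intervals of the classes overlapped for each of these motifs, so no order is read from them. Over all RING1B sites the intervals overlapped for the CRE core motif only.

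The promoters with the highest ranks for both proteins were those of developmental transcription factors. The 10 first, ranked by their lowest place in any of the 4 libraries, were FOXD3, ASCL2, FOXF2, LHX1, NKX6-1, SALL3, EBF2, EMX2, EVX2 and SOX21. Reads of a gene are those of the best-ranked domain of each library that touched its promoter window. At FOXD3, a forkhead factor of the neural crest, RING1B had 1380 reads (24 IgG) in the shDPPA4 line and 834 (39 IgG) in the shDPPA2+4 line. Its PCGF1 domains held 45 reads (1 IgG) over 800 bp and 152 reads (4 IgG) over 3100 bp. ASCL2, a basic helix-loop-helix factor of trophoblast and intestinal stem cells, had 103 and 118 RING1B reads (1 and 5 IgG) and 19 and 78 PCGF1 reads (0 and 1 IgG). Reads of libraries with different antibodies and depths are not on 1 scale, so these counts do not rank the proteins. LHX1, a LIM homeobox factor of kidney and head development, had 945 and 591 RING1B reads (17 and 32 IgG) and 48 and 70 PCGF1 reads (2 and 1 IgG). SOX21, a neural HMG box factor, had 656 and 396 RING1B reads (14 and 23 IgG). Its PCGF1 domains held 36 reads over 1700 bp in the shDPPA4 line and 23 over 800 bp in the shDPPA2+4 line. Neither had an IgG read, and these PCGF1 domains of SOX21 did not overlap each other. EVX2, the homeobox gene beside the HOXD cluster, had the most PCGF1 reads of the 10 in the shDPPA4 line (73, with 2 IgG) and 96 (4 IgG) in the other.

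RING1B promoters without PCGF1 that ranked first were a mixed set with few IgG reads. They were ZNG1B, CLEC2B, C7orf25, SMARCA2, CRMP1, ARMC3, ACP6, LRRC23, PAG1 and EPS8. SMARCA2, an ATPase of SWI/SNF remodelling complexes, had 80 RING1B reads (1 IgG) in the shDPPA4 line and 31 (0 IgG) in the shDPPA2+4 line. CRMP1, a cytoskeletal protein of growing axons, had 36 and 31 reads with no IgG read. EPS8, a regulator of actin capping, had 40 and 70 reads (0 and 3 IgG). The ranks of this set follow IgG counts of 0 to 3 as much as the RING1B reads. FOXB2 was the first of the forkhead list without PCGF1, with 99 and 16 RING1B reads and no IgG read, and TBR1, a T-box factor of the cortex, had 386 and 311 reads (14 and 20 IgG).

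The 4 promoters with PCGF1 and no RING1B were few-read calls. MYO9A and SENP8, on opposite strands, had the same best PCGF1 domains, with 20 and 14 reads and no IgG read. These lay side by side without overlap (chr15:72118101-72118800 in shDPPA4, chr15:72117501-72118100 in shDPPA2+4 cells). The PCGF1 site found there in both lines, chr15:72117201-72118100, held 10 and 14 reads (1 and 0 IgG). TJAP1 had 12 and 9 reads (1 and 0 IgG) and EEF1G, a translation elongation factor, 14 and 15 (0 and 1 IgG). All 4 had DPPA4 in both lines, beside 99.7% (shDPPA4) and 99.4% (shDPPA2+4) of promoters with both proteins. The DPPA4 shares were 93.4% and 90.6% at promoters with RING1B alone, and 25.5% and 17.3% with neither protein. TJAP1 had a RING1B domain in the doxycycline arm of the shDPPA4 line.

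Gene lists differed in how their promoters were divided between the classes. The share with both proteins was highest for the DLX, PAX, LHX and NKX homeobox factors (24 of 37, 64.9%), the Notch pathway (12 of 19, 63.2%), HOX genes (24 of 39, 61.5%), replication-dependent histones (41 of 69, 59.4%) and cyclins and their kinases (10 of 18, 55.6%), beside 15.8% of all promoters. Among RING1B promoters of these lists, 82.8%, 70.6%, 77.4%, 75.9% and 62.5% were with PCGF1, beside 27.5% of all RING1B promoters. Promoters of a cluster share sites, and the 41 histone promoters touched 26 RING1B sites. The lists also differed in RING1B density, with a median over their RING1B promoters of 67.2 (HOX) and 66.3 (histones) reads per kb in the shDPPA4 line, against 51.8 over all RING1B promoters, and the part of density in these shares was not tested.

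Among HOX genes, which set position along the body axis, HOXD8 had the highest rank, with 924 and 411 RING1B reads (17 and 25 IgG) and 176 and 164 PCGF1 reads (4 and 3 IgG). HOXA13 had 628 and 499 RING1B reads and 95 and 72 PCGF1 reads. HOXC5, HOXD3, HOXB5 and HOXA9 had RING1B without PCGF1, 5 HOX genes were mixed and 6 had neither protein. The Notch list included HEY2, HES3, DLL1 and HES5 with both proteins, and NOTCH2 and HEYL with RING1B alone. Of the cyclin list, CCND2 had 514 and 738 RING1B reads (11 and 41 IgG) but 9 and 14 PCGF1 reads, and the CDK inhibitor gene CDKN1C had 60 and 58 RING1B reads and 19 and 31 PCGF1 reads. Its relative CDKN1A had 60 and 29 RING1B reads and no PCGF1 domain. The PCGF1 domains given for CCND2 did not overlap each other between the lines, and neither did those given for CDKN1C. The CDKN1C PCGF1 domain of the shDPPA4 line also lay outside the RING1B domain given for that line.

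Forkhead (20 of 46, 43.5%), SOX (8 of 19, 42.1%) and T-box and GATA factors (8 of 23, 34.8%) also lay above the share of all promoters, as did frizzled receptors (5 of 10). Housekeeping lists lay above all promoters both for RING1B (57.6% of all promoters) and for both proteins (15.8%). Cytosolic ribosomal proteins had RING1B at 77 of 84 promoters and both at 21 (25%), mitochondrial ribosomal proteins at 64 of 77 and both at 17 (22.1%), complex I subunits at 31 of 37 and both at 8 (21.6%), and proteasome subunits at 30 of 39 and both at 9 (23.1%). Of their RING1B promoters 25.8% to 30% were with PCGF1, near the 27.5% of all RING1B promoters. ZNF genes had both at 50 of 476 (10.5%) and RING1B alone at 155 (32.6%), beside 15.8% and 24.9% of all promoters. WNT ligands had both at 5 of 19 (26.3%), above the share of all promoters. Potassium channels (8 of 95), clustered protocadherins (1 of 53), olfactory receptors (1 of 400) and keratin-associated proteins (0 of 94, which allows a share of up to 3.19%) lay below the share of all promoters. Germline genes had both at 3 of 22 promoters (13.6%), near the share of all promoters.

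Genes of the Polycomb complexes are read against all promoters. Of these, 57.6% had RING1B in both lines, 15.8% had both proteins, 24.9% had RING1B alone and 25.7% were mixed. Of the 8 PRC1 core and PCGF genes, 4 (50%) had both proteins in both lines, namely RNF2 (RING1B itself), PCGF1, PCGF2 and BMI1. The PCGF1 promoter had 131 and 74 RING1B reads (5 and 15 IgG) and 33 and 34 PCGF1 reads (0 and 2 IgG). PCGF6 had RING1B alone (23 and 10 reads), and RING1, PCGF3 and PCGF5 were mixed. Canonical PRC1 subunits had both proteins at 5 of 11 promoters, among them CBX2, CBX7, CBX8 and PHC2. Among 17 partners of variant PRC1, RING1B was present at all and PCGF1 in both lines at 3 (17.6%, near the share of all promoters), BCOR, DCAF7 and CBX3, while KDM2B, E2F6, WDR5 and L3MBTL2 were among the 10 with RING1B alone. BCOR, which binds PCGF1 in PRC1.1, had 52 and 27 RING1B reads and 10 and 19 PCGF1 reads. Of 14 genes of PRC2, the histone H3 lysine 27 methyltransferase, EZH2 and RBBP4 (14.3%, near the share of all promoters) had both proteins and 9 were mixed.

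Of the lung lineage genes, NKX2-1 and ABCA3, a lipid transporter of alveolar type II cells, had both proteins and 3 of 6 had neither, beside 15.8% and 33.6% of all promoters. Of the 6 neuroendocrine genes, INSM1 and DLL3 had both and the lineage factor NEUROD1 (20 and 10 reads) had RING1B alone. SALL4 was the pluripotency gene with both, 1 of 5, near the share of all promoters. These lists are too short for their shares to be read as results. No expression was measured in these libraries.

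Of RING1B sites with PCGF1, 439 lay away from any TSS, 63 in exons, 135 in introns and 241 in intergenic sequence. The first 5 by rank were the pericentromeric site 326555 bp from ALG10, at -15224 bp from the start of CBX8, in an intron 354047 bp from the start of DNAJB6, in an intron 159951 bp into RUNX1 and at -15381 bp from the start of PAX2. The RUNX1 site, 8900 bp at chr21:34884901-34893800, held 1049 and 808 RING1B reads (27 and 57 IgG) and 177 and 220 PCGF1 reads (8 and 11 IgG). The first 5 without PCGF1 included a CpG-poor intronic site at GATA4 (chr8:11712201-11715700, CpG ratio 0.39) with 137 and 84 RING1B reads (2 IgG in each line), and an intergenic site 15621 bp from OTX1 with 43 and 22 reads and no IgG read. The DPPA4 antibody gave no domain at either of them.

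DPPA4, EP300 and MTF2, which did not define the classes, were found more often at RING1B sites with PCGF1. DPPA4 (N-terminal antibody) covered 99.5% and 99.2% of RING1B sites with PCGF1 in the shDPPA4 and shDPPA2+4 lines, against 70.3% and 66.8% without. EP300, a histone acetyltransferase, covered 88.4% [87.3, 89.5] and 88.9% [87.8, 89.9] against 47.2% [46.3, 48.1] and 51.3% [50.4, 52.2], which is 41.2 and 37.6 points more. MTF2, a PRC2 accessory subunit, covered 85.9% and 83.8% against 65.2% and 65.3%. Peaks of both DPPA2 and DPPA4 in parental H661, from MACS2, covered 80.9% of sites with PCGF1 and 25.2% of those without. The counting intervals of the classes did not overlap for any of these.

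The size of these differences varied with RING1B density, and the part of density in them was not tested. In the highest quartile of RING1B reads per kb, EP300 covered 92.0% and 91.6% of sites with PCGF1 and 83.5% and 86.7% of those without. At promoters of that quartile the shares were 92.8% and 92.5% against 90% and 91.2%. In the second quartile EP300 covered 72.4% and 78.6% with PCGF1 against 49.0% and 54.0% without. DPPA4 covered 88% and 84% of the 25 sites with PCGF1 in the lowest quartile, against 48.0% and 43.3% without, and 99.8% and 99.7% against 94.9% and 93.9% in the highest. The MTF2 shares in the third quartile were 90.4% and 87.5% against 69.5% and 68.2%, as far apart as over all sites, and in the highest 84.6% and 83.3% against 74.5% and 74.8%. MTF2 at promoter sites was at 87.5% against 85.1% in the shDPPA4 line and 86.8% against 85.9% in the shDPPA2+4 line. DPPA4 at promoter sites was at 99.7% against 90.8% and 99.5% against 87.3%, and away from any TSS at 98.4% against 53.2% and 97.5% against 49.6%. The DPPA4 difference was thus larger away from any TSS than at promoters.

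Over all RING1B sites, those with PCGF1 were more often called again in the doxycycline arm, but not in every class of sites. In the shDPPA4 line 99.0% [98.6, 99.3] of sites with PCGF1 and 94.0% [93.5, 94.4] of those without overlapped a RING1B domain after doxycycline, and in the shDPPA2+4 line 87.7% [86.6, 88.8] and 63.1% [62.3, 63.9]. The difference was 5.01 points after the DPPA4 hairpin and 24.6 points after both hairpins. The doxycycline lists differed in size, with 61213 and 27192 RING1B domains. Within the highest density quartile the shDPPA2+4 shares were 87.5% and 75%. In the lowest quartile of reads over IgG reads they were 43.99% and 42.7%, and at promoters of that quartile 43.2% with and 47.5% without PCGF1. At the same promoters the shDPPA4 shares were 93.5% with and 90.5% without. Among sites of 2500 to 5000 bp the shares were 99.2% and 99.4% in the shDPPA4 line and 94.5% and 92.6% in the shDPPA2+4 line. Among sites of 500 to 1000 bp they were 98.0% and 93.6% in the shDPPA4 line and 82.4% and 60.0% in the shDPPA2+4 line. Taking each line's own domains in place of the shared sites gave 20.0 points (shDPPA4) and 31.9 points (shDPPA2+4). At sites that still had a domain, RING1B reads per kb scaled for library size changed by a median log2 of -0.30 with PCGF1 and -0.14 without in the shDPPA4 line, and by -0.75 and -0.62 in the shDPPA2+4 line. The scaling took off a log2 of 0.36 and 0.69 in the 2 lines, and without it, a setting chosen after seeing the data, the medians were 0.06 with and 0.22 without PCGF1 in shDPPA4 cells and -0.05 and 0.07 in shDPPA2+4 cells. The sign of the change thus rests on the scaling. The order of the classes could not change with it, since both classes of a line were scaled by the same amount. The quartiles of the 2 classes overlapped in each line, for example -0.55 to -0.04 with PCGF1 and -0.45 to 0.17 without in the shDPPA4 line. The control and doxycycline libraries of a line shared an IgG control, since IgG counts were equal in all 1459 and 902 domains with identical ends, which allowed this scaling.

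The 162 PCGF1 sites without RING1B stood apart from PCGF1 sites with RING1B in position, CpG content and reads. Of them, 1.85% were at promoters, 38.3% intronic and 47.5% intergenic, a median of 63597.5 bp from the nearest protein-coding TSS. Their median CpG ratio was 0.21, and 93.2% had a CpG-poor centre (ratio below 0.5), against 3.69% of PCGF1 sites with RING1B. They held a median of 11 and 13 PCGF1 reads against 1 IgG read, while PCGF1 sites with RING1B held 18 and 20. DPPA4 covered 12.3% and 9.88% of them and EP300 8.02% and 11.1%. MACS2 called a PCGF1 peak at 0 of the 162 in each line, and at 29.6% and 13.7% of PCGF1 sites with RING1B. The first by rank away from any TSS, in an intron of AASDH (chr4:56353001-56354200), had 11 and 12 PCGF1 reads and no IgG read.

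These sites were concentrated in few regions. Chromosome 14 held 53, chromosome 5 held 28 and chromosome 19 held 22 of the 162. These chromosomes held 205, 211 and 290 of all 3864 PCGF1 sites. Windows of 5 Mb at 35-40 and 30-35 Mb of chromosome 14 and 35-40 Mb of chromosome 19 held 26, 25 and 15 of the 162. Together these windows held 66 of the 162 (40.7%), beside 160 of all 3864 PCGF1 sites (4.14%) and 1.70% of RING1B sites. Rabbit IgG reads per kb, measured over MTF2 domains so as not to use the PCGF1 calls, averaged 4.95, 3.30 and 6.54 in these windows in the shDPPA4 line, against 1.84 over the genome. In the shDPPA2+4 line they averaged 5.02, 3.78 and 7.73 against 2.07. The MTF2 antibody was a rabbit antibody, so this is not the mouse IgG that PCGF1 was read against. PCGF1 sites held a median of 1 mouse IgG read in each line, both with and without RING1B. Rabbit IgG density thus moved with these sites, and the part of IgG in the calls was not tested. The windows were chosen for their counts after these were seen. Outside the 3 windows 96 of 3704 PCGF1 sites (2.59%) were without RING1B and 96.5% were with it. The longest RING1B site, over NKX2-1, lay in the first of these windows.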

How the data were processed

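CUT&RUN libraries of PCGF1 and RING1B from control shDPPA4 and shDPPA2+4 cells were compared, with DPPA4, EP300, MTF2 and doxycycline RING1B libraries of the same lines and parental DPPA2 and DPPA4 peaks for description. The authors trimmed reads with Trim Galore (0.6.6, per the submitters' notes) and aligned the trimmed reads to hg38 with BWA (0.7.13). They called regions per library with EPIC2 and MACS2 against IgG. Each deposited EPIC2 file holds whole-number counts of library and IgG reads per domain, and a log2 fold change scaled for library size. Its p-value, FDR and score are as the authors deposited them. Deposited MACS2 peaks hold a fold enrichment (a ratio), −log10 p-values and q-values and a score. Regions with FDR below 0.05 and log2 fold above 1, the limits of the study, were kept, and here only on autosomes and chromosome X. The study's blacklist was not used here. Library depth cannot be read from region lists.

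Overlap required 25% of the shorter region, and shared domains of both lines were joined. A promoter carried a protein when a domain touched the TSS ± 1500 bp (GENCODE 44). Promoters were ranked per library by (reads + 1)/(IgG reads + 1) of the best domain, and the first 10 of each class, the first 4 of each list, the Polycomb genes and the first 5 sites away from a TSS were named by their worst rank, with further list genes (CCND2, CDKN1C, CDKN1A) falling under the list rule and the longest sites and those with most PCGF1 sites added after their values were seen. CpG content came from ± 500 bp of hg38. The members, lists and tests were chosen with earlier results of these data known. The density quartiles were added after the data were seen. Overlap code was tested on simulated regions. Intervals were computed with SciPy 1.17.1 in Python 3.11.15. Some genes and sequences that these rules name are not reported here.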

Additional observations from a re-analysis of the deposited data

How the results depend on the processing

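Differences between RING1B sites with and without PCGF1 kept their sign under the alternatives run, and 26 of 51 values moved by less than the spread between the lines or, for the promoter count, by less than 1.5-fold. Requiring a log2 fold above 2 gave 10.4% of RING1B sites with PCGF1, 80.2% of PCGF1 sites with RING1B, a length ratio of 2, 1341 promoters with both and an EP300 difference of 26.6 points. MACS2 peaks gave 1.71%, 100%, a length ratio of 2.91, a promoter difference of 22.6 points, 282 promoters, an EP300 difference of 42.1 points and a doxycycline difference of 50.1 points. MACS2 called few PCGF1 peaks, and 435 were shared by both lines. Limiting the RING1B lists by log2 fold to the size of the PCGF1 lists gave 11.5% and 6.91%, which turned the order of these shares, a length ratio of 4, 254 promoters and an EP300 difference of 45.3 points. That limit left 1799 shared RING1B sites. With either line left out, the values ranged from 15.1% to 19.1% of RING1B domains with PCGF1, 63.1% to 65.7% of PCGF1 domains with RING1B, a length ratio of 2 in both, 37.3 to 44.4 points at promoters, 4731 to 5071 promoters, 39.8 to 52.5 points for EP300 and 20.0 to 31.9 points for doxycycline. A single line asks for no second call, and its lists are longer by construction. The cause of the other shifts was not tested. Overlap of 1 bp or 50% and a promoter of TSS ± 500 bp moved no result by more than that spread. No paired analysis was possible because the results are overlaps of region lists and come from no test. Libraries are matched by line, and values are given per line. The median of 12 or 13 reads per PCGF1 domain limits which sites can be called without PCGF1.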
